A study of Mus musculus with 2 samples.

Results

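The 10 genes described here encode the alpha-tubulin isotypes Tuba1a, Tuba1b, Tuba1c and Tuba4a and the beta-tubulin isotypes Tubb2a, Tubb2b, Tubb3, Tubb4a, Tubb4b and Tubb5. They were taken by gene identifier from tables that list 43346 Ensembl genes, and 10 of 10 were matched, 4 alpha and 6 beta. The tables also list 24 transcripts of these genes. RNA came from whole forebrain of newborn mice (strain B6NCrl, postnatal day 0), with no genetic change or treatment named in the labels. The input to each library was 13 pg of RNA longer than 200 nt, the amount in about 1 cell, but drawn from tissue and not from a single cell. There were 2 libraries, from pup 1 (replicate 1) and pup 3 (replicate 2), and both belong to 1 group. No condition was compared, 1 library per pup allows no test between pups, and spread between pups may be technical as much as biological. Paired values below are for pup 1 first and pup 3 second.

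Microtubules are built from dimers of 1 alpha and 1 beta tubulin, and mammals make several isotypes of each from separate genes. The isotypes are nearly alike in the folded body and differ mainly in the acidic tail at the carboxyl end, which faces outward and carries glutamylation and other modifications that motors and associated proteins read. Growing neurons in the developing forebrain depend on the supply of tubulin for axons and dendrites. Tuba1a, Tubb2b and Tubb3 are the isotypes classically tied to young neurons, and changes in these genes cause malformations of the cortex in people. Tubulin messages also control their own stability, through the first residues of the nascent protein, which the factor Ttc5 recognises at the ribosome.

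The end of the coding sequence is shown for Tuba4a and the beta members because the tail it encodes is where the isotypes are best known to differ. Each line gives the last 60 coding bases (20 codons, stop codon left out), 5′ to 3′ in the sense of the gene, with mm10 position and strand, from GENCODE M21 transcripts. Capitals mark the codons gaa and gag, which encode glutamate. The alpha member Tuba4a read as follows.
Tuba4a (chr1:75215625-75215684, minus strand): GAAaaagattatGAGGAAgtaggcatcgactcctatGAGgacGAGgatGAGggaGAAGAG

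The beta members were as follows.
Tubb2a (chr13:34074471-34074530, minus strand): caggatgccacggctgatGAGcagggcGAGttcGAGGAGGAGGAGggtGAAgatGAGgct
Tubb2b (chr13:34127474-34127533, minus strand): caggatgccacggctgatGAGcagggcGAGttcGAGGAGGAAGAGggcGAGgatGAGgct
Tubb3 (chr8:123421620-123421679, plus strand): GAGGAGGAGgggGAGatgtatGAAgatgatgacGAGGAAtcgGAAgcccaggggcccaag
Tubb4a (chr17:57080693-57080752, minus strand): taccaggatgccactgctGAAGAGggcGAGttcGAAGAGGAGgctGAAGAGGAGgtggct
Tubb4b (chr2:25222311-25222370, minus strand): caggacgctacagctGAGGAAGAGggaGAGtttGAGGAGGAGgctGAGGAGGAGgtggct
Tubb5 (chr17:35834985-35835044, minus strand): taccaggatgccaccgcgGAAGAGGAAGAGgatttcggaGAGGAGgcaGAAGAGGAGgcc

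These tails held 8 glutamate codons in Tuba4a, Tubb2a, Tubb2b and Tubb3, 9 in Tubb4a and Tubb5, and 10 in Tubb4b. The last codon was gag in Tuba4a, whose protein is thus made without the terminal tyrosine of most alpha tubulins. Tubb3 ended in a lysine codon (aag), and the other 5 beta members ended in an alanine codon (gct or gcc). The tails of Tubb2a and Tubb2b differed at 3 bases.

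The start of the coding sequence, where tubulin messages are recognised for self-control, separated the classes. The first 4 codons, with the last of them in capitals, were atgcgtgagTGC in Tuba1a, Tuba1b and Tuba1c and atgcgcgagTGC in Tuba4a. In the beta members they were atgcgcgagATC in Tubb2a, atgcgagagATC in Tubb2b, atgagggagATC in Tubb3 and Tubb4b, atgcgggaaATC in Tubb4a and atgagggaaATC in Tubb5. All 4 alpha members carried the cysteine codon tgc at position 4, and all 6 beta members the isoleucine codon atc.

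Over whole coding sequences (444 to 451 codons), the 6 alpha pairs were 84.8 to 98.3% identical in bases and the 15 beta pairs 81.3 to 96.5%, against 52.4 to 55.4% for the 24 alpha-beta pairs. Tuba1a and Tuba1b, 15.3 kb apart on chromosome 15, differed at 23 coding bases and 2 residues. Tubb2a and Tubb2b, 48.7 kb apart on chromosome 13, differed at 47 coding bases and 2 residues. Tubb3 stood farthest from the other beta members, at 38 to 42 residues, whereas Tubb4a and Tubb4b differed at 7.

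This likeness bears on how far reads can be assigned to 1 gene. The deposited effective lengths were 99 bases below the transcript lengths, which is what a read of 100 bases gives, so each 100-base window of 1 transcript per member was looked for in the transcripts of all other listed genes on either strand. No window of Tubb3, Tubb4a or Tubb5 occurred in another gene. In Tubb2a and Tubb2b, 43.9% of the windows within coding sequence were shared between the pair. Of the coding windows, 67.7% of those of Tuba1a, 86.0% of Tuba1b and 80.6% of Tuba1c also occurred in another gene. They were shared among these 3 genes, none of which shared a window with Tuba4a, and with processed pseudogenes. Over whole transcripts, 13 windows of Tuba1a and 22 of Tuba1b also occurred in Slc7a11. In the UTRs the share was 0.667% in Tuba1a and 0% in Tuba1b and Tuba1c. In Tubb4b, 35.4% of coding windows were shared, mostly with the pseudogene Tubb4b-ps1. For Tuba4a no coding window was shared, but 85.6% of the windows touching its UTRs, in the transcript Tuba4a-202, also lay in Stk16, a kinase gene that overlaps its end on the opposite strand. Tuba4a-202 was used because its coding sequence is complete in the annotation, and it held only 1.26% and 3.16% of the gene's TPM. In the transcripts that led, Tuba4a-201 and Tuba4a-206, 27.0% and 0% of all windows lay in Stk16.

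**Figure D1:**
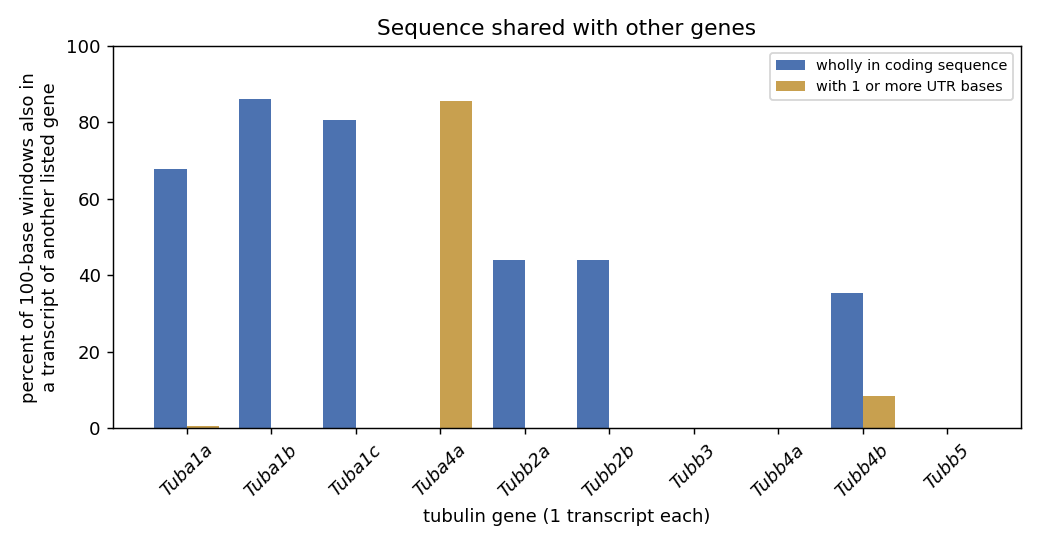
Percent of 100-base windows (y axis) of 1 transcript per tubulin gene (x axis) that also occur in a transcript of another listed gene, for windows wholly in coding sequence (blue) and windows with 1 or more UTR bases (ochre). Tubb3, Tubb4a and Tubb5 are at 0 in both, Tuba1b is highest in coding sequence at 86.0%, and the UTR bar of Tuba4a, at 85.6%, is overlap of its minor transcript Tuba4a-202 with Stk16.

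The deposited posterior SD of the read count, which covers reads shared between features and no other error, differed widely between members. It was 0 reads in both pups for Tubb4a and Tubb5 and at most 0.65 for Tubb3. It was 192 and 107 reads for both Tubb2a and Tubb2b. For Tuba1a it was 150 and 148 reads, and for Tuba1b 164 and 155 reads, of 59524 and 61670 reads assigned to Tuba1b. For Tuba1c it was 66.8 and 11.8 reads, of 3529 and 100 reads. It was low in Tubb4b (3.25 and 2.84 reads) and Tuba4a (1.94 and 0.18 reads), although both share windows with other genes, so the SD did not follow the share of windows alone.

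The libraries held 41082811 and 29881397 expected reads, which are estimates in which a read fitting several features is shared between them. The 10 members took 5.05% of reads in pup 1 (95% Clopper-Pearson interval 5.05 to 5.06) and 4.63% in pup 3 (4.62 to 4.63). Reads carry no molecular identifiers, so these intervals cover counting error only. Spike-in RNA made up 4.46% of TPM in pup 1 and 7.30% in pup 3, and the nuclear protein-coding genes found, meaning TPM of at least 1, numbered 9048 and 6210. TPM, the unit used below, is reads scaled by transcript length to the same total in each library, so levels of different genes can be set side by side. The neuronal marker Stmn2 was present in both pups, at 1786 and 1738 TPM. The hindbrain genes Hoxa2 and Hoxb3 had 1 read or none.

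All 10 members were found in each pup, whereas 5305 of 21461 nuclear protein-coding genes were. That contrast goes with level, as the median of mean TPM was 1721 for the members and 0.045 for all those genes. Together the 10 members held 4.78% of all TPM in pup 1 and 3.68% in pup 3. The shares were 5.28% and 4.24% when spike-ins and mitochondrial genes were left out of the total. Alpha members outweighed beta members in both, at 66.5% and 76.8% of the family's TPM, although the dimer takes equal numbers of each protein. The ratio of alpha to beta TPM was 1.99 in pup 1 and 3.31 in pup 3. Without Tuba1a it was 0.0949 and 0.214, so in both libraries that 1 gene placed alpha above beta. In tissue RNA such as this, fewer cells of a type cannot be told apart from less RNA per cell.

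Tuba1a, the main alpha tubulin of young neurons (ENSMUSG00000072235, mm10 chromosome 15, 98949837 to 98953703), stood at 30283 and 26444 TPM. It ranked 1 among nuclear protein-coding genes in each library. It made up 95.2% and 93.5% of alpha TPM (94.4 ± 1.20%, SD, n = 2). Of all 10 members' TPM it held 63.4% and 71.9%. In reads, its share of the alpha members was 94.8% (94.8 to 94.9) and 93.3% (93.2 to 93.3).

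Tuba1b, a widely expressed alpha tubulin (ENSMUSG00000023004, chromosome 15, 98931425 to 98934565), was at 1372 and 1619 TPM, ranks 59 and 47. Its share of alpha TPM was 4.31% and 5.73%. The level of Tuba1a was thus 22.1 and 16.3 times that of its close relative, and the sharing of coding windows between them stands beside that ratio.

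Tuba4a (ENSMUSG00000026202, chromosome 1, 75214228 to 75219865), the isotype made without the terminal tyrosine, was at 74.5 TPM (3364 reads) and 207 TPM (6428 reads). Its share of alpha TPM was 0.234% and 0.731%. Stk16, in the opposite order, was at 182 TPM (4236 reads) in pup 1 and without reads in pup 3. The strand setting of the counting is not given here, and the part of the overlap in the value of Tuba4a was not tested. Tuba1c (ENSMUSG00000043091, chromosome 15, 99029891 to 99038110), another broadly expressed alpha tubulin, was the lowest member, at 70.8 TPM (3529 reads) and 2.31 TPM (100 reads). These 2 minor alpha genes thus lay on opposite sides, Tuba4a being higher in pup 3 and Tuba1c in pup 1. The order of the alpha members from high to low was Tuba1a, Tuba1b, Tuba4a and Tuba1c in both pups, but Tuba4a and Tuba1c were at close levels in pup 1.

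**Figure D2:**
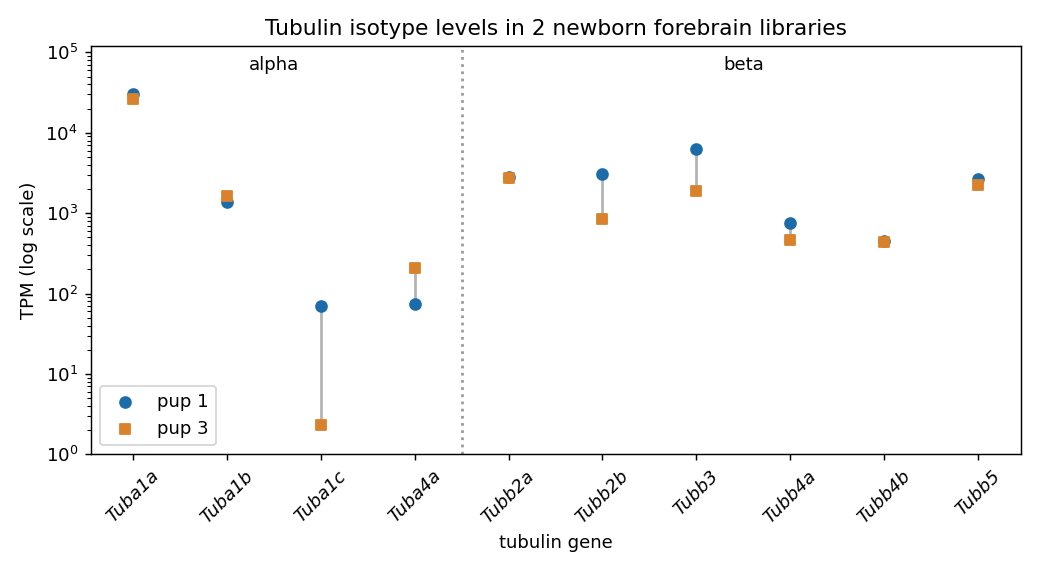
TPM on a log axis for each tubulin gene (x axis, alpha members left of the dotted line, beta members right) in pup 1 (blue circles) and pup 3 (orange squares), joined by a line. Tuba1a lies above all others in both pups, at 30283 and 26444 TPM, and Tuba1c shows the widest gap, 70.8 against 2.31 TPM.

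No beta isotype dominated as Tuba1a did. Tubb3, the class III beta tubulin used as a marker of neurons (ENSMUSG00000062380, chromosome 8, 123411424 to 123422015), made up 39.2% and 22.0% of beta TPM (30.6 ± 12.2%, SD, n = 2). In reads its share was 37.3% (37.2 to 37.5) and 20.9% (20.8 to 21.1). Its level was 6275 TPM (294569 reads) and 1872 TPM (76756 reads), and its rank among nuclear protein-coding genes 5 and 31. No 100-base window of Tubb3 is shared with another listed gene, so almost no read of this value was divided between genes. Another protein-coding gene, Gm20388, overlaps Tubb3 on the same strand. Gm20388 was at 15.3 TPM (1567 reads) in pup 1 and without reads in pup 3. The part of that overlap in the value of Tubb3 was not tested.

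Tubb2b, a beta tubulin of migrating young neurons (ENSMUSG00000045136, chromosome 13, 34126748 to 34130466), was likewise higher in pup 1, at 3049.7 and 844.2 TPM. Its share of beta TPM was 19.1% and 9.90%. Its neighbour Tubb2a (ENSMUSG00000058672, chromosome 13, 34074274 to 34078007), which differs from it by 2 residues, was at 2832 and 2708 TPM, so that the ratio of Tubb2a to Tubb2b was 0.929 and 3.21. The summed level of Tubb3 and Tubb2b was 9324 and 2717 TPM, while the other 4 beta members summed to 6664 and 5813 TPM. The lower beta total of pup 3 thus lay mainly in Tubb3 and Tubb2b.

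Tubb5, a beta tubulin of dividing and many other cells (ENSMUSG00000001525, chromosome 17, 35833921 to 35838306), was at 2636 and 2212 TPM, or 16.5% and 25.9% of beta TPM. Tubb4a, which in the adult brain is best known from oligodendrocytes (ENSMUSG00000062591, chromosome 17, 57080066 to 57087782), was at 748 and 458 TPM. Tubb4b (ENSMUSG00000036752, chromosome 2, 25222160 to 25224702), a beta tubulin that is also a main one of cilia, was at 447 and 435 TPM. Tubb4b had the closest values of the 10 members in TPM, though not in every scaling, with 441 ± 8.39 TPM (SD, n = 2), a coefficient of variation of 1.90%.

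The order of beta members therefore differed between libraries, from Tubb3, Tubb2b, Tubb2a and Tubb5 in pup 1 to Tubb2a, Tubb5, Tubb3 and Tubb2b in pup 3, with Tubb4a and Tubb4b last in both. Over both pups the means, from high to low, of Tubb3 (4073 ± 3113 TPM, SD, n = 2), Tubb2a (2770 ± 87.8), Tubb5 (2424 ± 300.3) and Tubb2b (1947 ± 1560 TPM) followed in that order. The values of Tubb3 overlapped those of Tubb2a, and those of Tubb2b overlapped those of Tubb5, so these neighbours did not differ beyond their spread. Tubb2a and Tubb5 did not overlap, Tubb2a being higher in each pup.

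**Figure D3:**
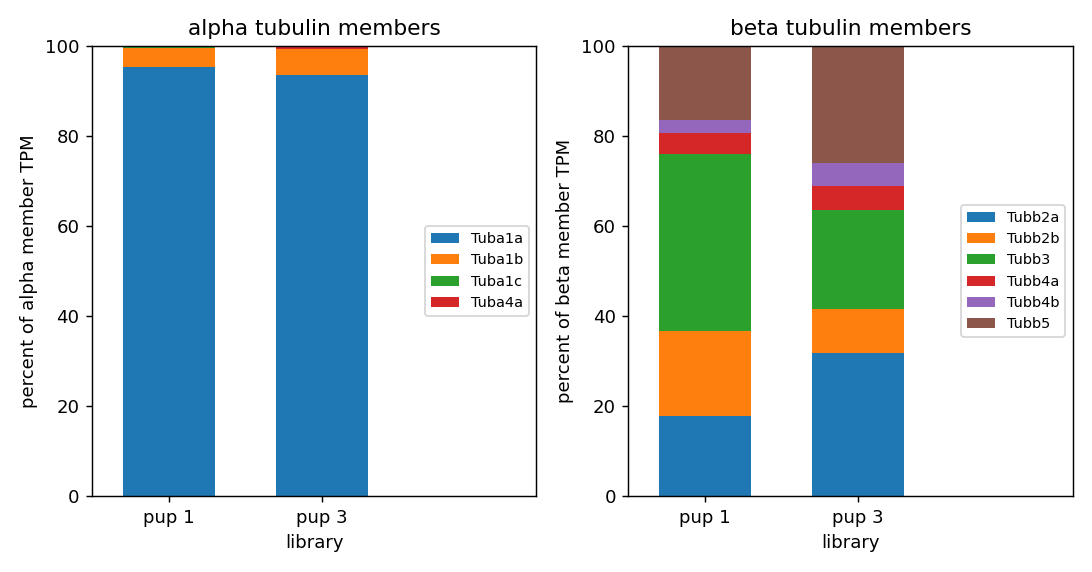
Stacked bars of the percent of alpha member TPM (left panel, y axis) and of beta member TPM (right panel, y axis) held by each isotype in pup 1 and pup 3 (x axis). Tuba1a fills 95.2% and 93.5% of the alpha bars, while Tubb3 (green, right) takes 39.2% of the beta bar in pup 1 and 22.0% in pup 3.

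Of the 10 members, 4 were 2-fold or more apart between pups on log2(TPM + 1). Tuba1c (-4.44, pup 3 minus pup 1), Tubb2b (-1.85) and Tubb3 (-1.74) were higher in pup 1, and Tuba4a (1.46) was higher in pup 3. Such gaps were common at this input: of 2797 nuclear protein-coding genes with a mean of at least 50 TPM, 43.1% were as far apart, and 3 of the 9 members at that level were (Tuba1c is below it). At a mean of at least 500 TPM, where 21.2% of 259 genes were as far apart, the count was 2 of 7 members, Tubb2b and Tubb3. The median difference of the 9 members was -0.20 against 0.12 for all 2797 genes, and the median size of the difference was 0.25 against 0.84. For the 7 members and 259 genes at a mean of at least 500 TPM, the medians were -0.25 and 0.12. The median sizes there were 0.25 and 0.58, so part of the contrast in size goes with level.

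The other 6 members lay within 2-fold, with differences from -0.71 for Tubb4a to 0.24 for Tuba1b. FPKM differs from TPM by 1 factor per library, which moved the median of those 2797 genes from 0.12 to 0.38. By that shift Tuba1a (-0.20 in TPM), Tubb2a (-0.06), Tubb4b (-0.04) and Tubb5 (-0.25) came to 0.07, 0.20, 0.22 and 0.01, so the direction of these 4 turned with the scaling. Tubb4b alone also turned in CPM with TMM factors (0.01) and without spike-ins and mitochondrial genes (0.02). Relative to the median of the 2797 genes, these 4 lay lower in pup 3, at -0.31, -0.18, -0.16 and -0.37 in TPM. In CPM with TMM factors they lay at -0.22, -0.11, -0.09 and -0.36. The remaining scalings all but repeat TPM here, since 1 factor per library cancels against the median and posterior mean TPM is nearly the same value. The 4 members that were 2-fold apart, Tubb4a and Tuba1b kept their direction in FPKM, posterior mean TPM, CPM with TMM factors and TPM without spike-ins and mitochondrial genes.

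**Figure D4:**
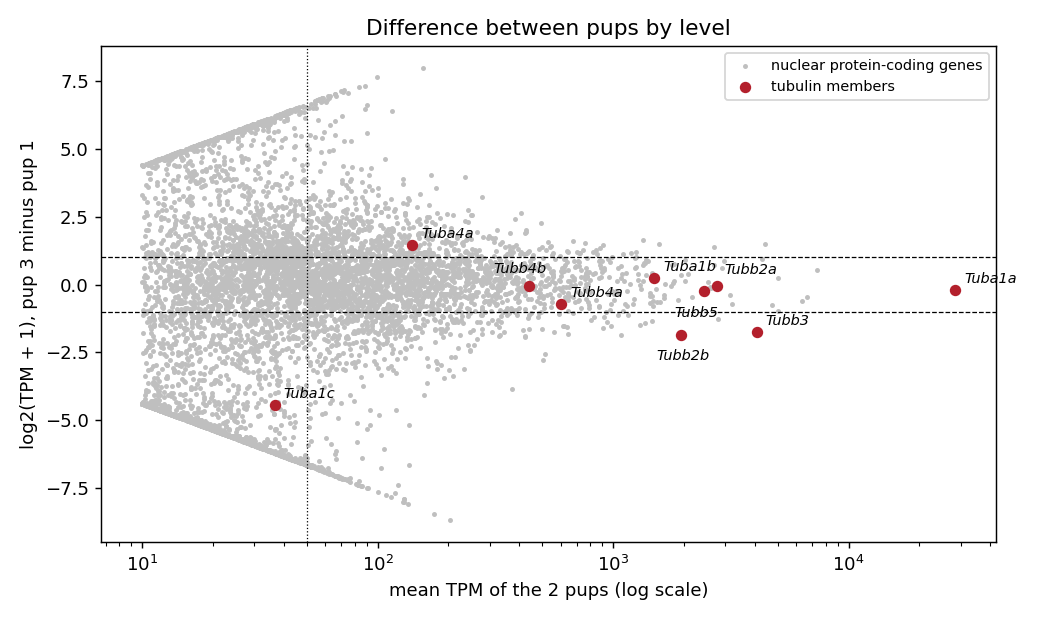
Difference between pups, log2(TPM + 1) of pup 3 minus pup 1 (y axis), against the mean TPM of the 2 pups (x axis, log scale), for nuclear protein-coding genes with a mean of at least 10 TPM (grey) and the tubulin members (red). Dashed lines mark 2-fold and the dotted line mean TPM of 50. Tubb3 and Tubb2b lie below the lower dashed line at -1.74 and -1.85, and Tuba1a lies near 0 at -0.20.

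Neuronal and other cell markers also differed between the libraries. Of 4 neuronal markers, 3 were found in both pups and their list summed to 2459 and 1993 TPM. Snap25 was at 433 and 121 TPM, Map2 at 227 and 134 TPM, and Rbfox3 at 13.1 and 0 TPM, while Stmn2 was nearly level. The 4 astroglial and radial glial markers summed to 1614 and 2538 TPM, with none at 0, and Fabp7 held most of the sum, at 1337 and 2290 TPM. Slc1a3 lay the other way, at 228 and 83.1 TPM, while Gfap was at 33.7 and 108 TPM and Aqp4 at 16.0 and 57.9 TPM. The 4 microglial markers summed to 236 and 64.4 TPM, and Csf1r, C1qa and Aif1 had no reads in the second library. The 4 oligodendrocyte lineage markers summed to 67.5 and 26.8 TPM, with Olig1 and Mbp at 0 reads in pup 3, beside Tubb4a at 748 and 458 TPM. Olig2 lay the other way, at 0.03 and 12 TPM, and Pdgfra was at 18.0 and 14.8 TPM. The 2 ependymal and ciliated cell markers summed to 36.2 and 0 TPM, beside Tubb4b at 447 and 435 TPM. The 5 erythroid genes summed to 1750 and 3276 TPM, with Hba-a1 and Hba-a2 more than 2-fold higher in pup 3. Hbb-bs was also higher there (457 and 816 TPM), while Hbb-bt (220 and 192 TPM) and Alas2 (27.1 and 17.5 TPM) were lower. The part of cell composition in the levels of Tubb3, Tubb2b and the other members was not tested.

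Of the members, 5 had more than 1 listed transcript. In Tuba1a the 4-exon transcript Tuba1a-201 held 96.1% and 99.8% of the gene's TPM. The remainder in pup 1 was mainly ENSMUST00000136329, at 1087 TPM (23566 reads) and 8.42 TPM (159 reads), a 916-base model of the annotation used by the authors that GENCODE M21 does not list. In pup 3 the remainder was mainly ENSMUST00000134214, at 87.0 TPM (1179 reads) and 36.1 TPM (427 reads). GENCODE M21 lists that transcript under another gene name, Gm49450. Tuba1b-201 held 99.3% and 99.9%, and Tubb4b-201 held 99.96% and 99.9%. In these 3 genes 1 transcript thus accounted for nearly all of the TPM in each pup.

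Tubb5 and Tuba4a were more divided. The 4-exon coding transcript of Tubb5 held 97.0% and 91.2% of TPM, and a retained-intron transcript of the gene held 2.69% and 8.43% (71.0 and 187 TPM). In Tuba4a the leading transcript differed between pups, since Tuba4a-201 held 69.0% and 29.4%, and the 2-exon transcript Tuba4a-206 held 21.5% and 47.9%. Tuba4a-201 was at similar levels, 51.5 and 60.7 TPM, while the other 7 transcripts together were at 23.1 and 146 TPM. The higher Tuba4a of pup 3 thus lay mainly in transcripts other than Tuba4a-201.

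**Figure D5:**
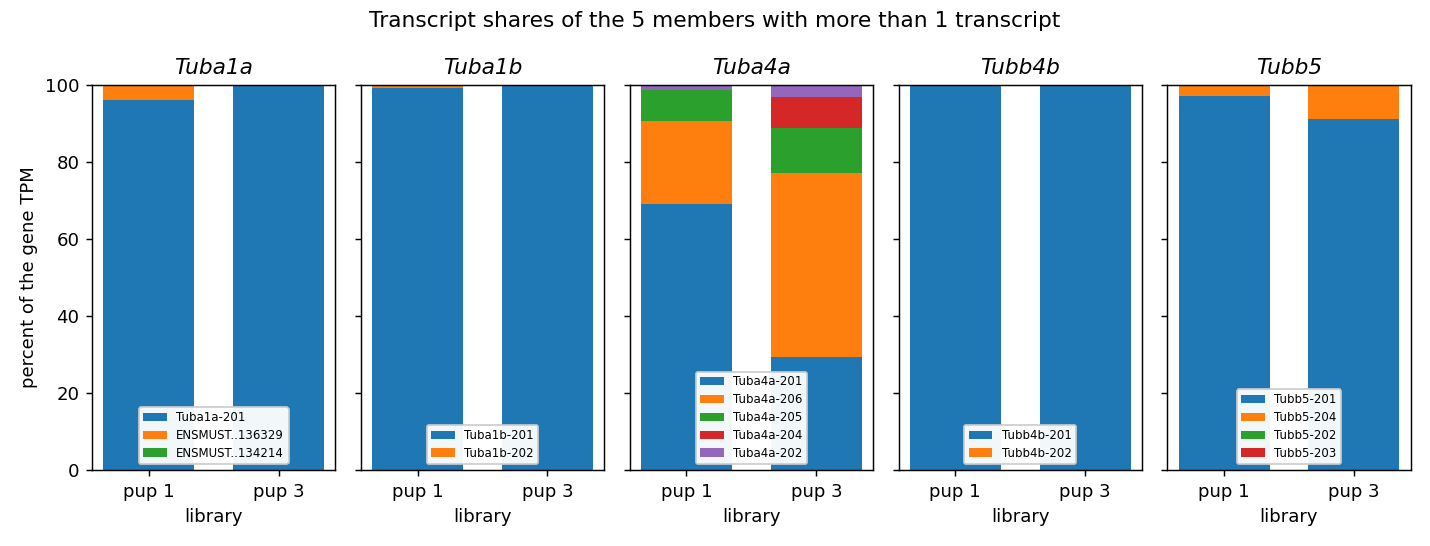
Percent of a gene's TPM (y axis) held by each transcript in pup 1 and pup 3 (x axis) for the 5 members with more than 1 listed transcript; transcripts at 0 TPM in both pups are left out. Blue is the transcript with the highest mean share, which is at 69.0% and 29.4% in Tuba4a (Tuba4a-201) and at 91.2% or more in the other genes.

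Processed pseudogenes took few reads. The 6 listed pseudogenes that share windows with alpha members, Gm14150, Gm17383, Gm6682, Gm3756, Gm5620 and Gm15599, summed to 140.2 TPM (3241 reads) and 153 TPM (3350 reads), or 0.441% and 0.542% of the alpha members' TPM. Gm14150 led at 65.5 and 80.0 TPM, which is close to the levels of Tuba4a and Tuba1c in pup 1. The beta pseudogenes Tubb4b-ps1 and Tubb4b-ps2 were below 1 TPM in both pups.

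Other tubulin genes were low or not found. Of 10, only Tubg1, the gamma tubulin that nucleates microtubules, was found in both pups, at 64.6 and 120.4 TPM. Tubg2 (52.8 TPM), the delta tubulin gene Tubd1 (43.6 TPM) and Tubb6 (35.8 TPM) were found in pup 1 alone, with 0, 0 and 1 read in pup 3. Tuba3a, Tuba3b, Tuba8, Tubal3, Tubb1 and Tube1 had 0 reads in both pups, where 3 reads, the limit a count of 0 allows, are 0.0730 CPM in pup 1 and 0.1004 CPM in pup 3.

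Genes that fold tubulin were mostly found in both pups. New tubulin passes from prefoldin to the CCT chaperonin and then to cofactors that join alpha and beta into a dimer. All 8 CCT subunits were found in both, from Cct5 (655 and 801 TPM), Cct3 (386 and 746) and Cct6a (372 and 594 TPM) down to Cct8 (458 and 250.4) and Cct2 (297 and 329 TPM). Of these 8, Cct4 alone, at 153 and 579 TPM, was 2-fold apart. Of all nuclear protein-coding genes with a mean of at least 50 TPM, 43.1% were as far apart. All 6 prefoldin genes were found in both, led by Pfdn5 (948 and 322 TPM), Pfdn6 (252 and 281) and Vbp1 (176 and 214 TPM), with Pfdn1 (106 and 97.6) and Pfdn4 (169 and 23.4 TPM) lowest. Pfdn5 and Pfdn4 were 2-fold or more higher in pup 1, and Pfdn2 (59.0 and 168 TPM) in pup 3. Of 7 folding cofactors 5 were found in both. Tbcb (277 and 694 TPM) and Tbca (260.4 and 607 TPM) hold free alpha and beta tubulin. They and Tbcd (14.2 and 65.6 TPM) were 2-fold or more higher in pup 3. Tbce lay the other way, at 110 and 55.1 TPM. Arl2 was at 144 and 104 TPM, and Tbcc (0.89 and 0.02 TPM) and Tbcel (0 reads) were below 1 TPM.

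Enzymes that modify tubulin were found less evenly than the folding genes, but they also stood lower. Their median of mean TPM was 15.7, against 82.5 for the cofactors, 154 for prefoldin and 386 for CCT. The part of level in this contrast was not tested. Of 17, both libraries held 5, only the first held 7, only the second 2, and 3 were found in neither. Atat1, which acetylates alpha tubulin inside the microtubule, was at 474 and 242 TPM, and its opposing deacetylases Sirt2 (138 TPM) and Hdac6 (48.7 TPM) were seen in pup 1 without a read in the other library. The terminal tyrosine of most alpha tubulins is the target of a cycle of removal and return. Svbp, the partner of the vasohibins that remove the tyrosine, was at 270 and 282 TPM, Vash2 at 45.3 and 0 TPM, and Vash1, the reverse, at 0 and 28.8 TPM. Ttl, the ligase that restores it, was at 40.7 and 30.1 TPM. Among enzymes acting on the glutamate residues of the tails, Ttll1 was at 71.4 TPM (3712 reads) and 0.02 TPM (1 read), and Agtpbp1, which trims them, at 40.9 and 80.8 TPM. The lowest listed, Ttll11 and Agbl4, had 0 reads in both.

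In the gamma-tubulin ring complex list, which seeds new microtubules, both libraries held 5 of 8 genes, 2 more were found only in pup 1, and 1 in neither. Mzt2 (15.0 and 186 TPM) and Mzt1 (103 and 13.5 TPM) lay in opposite directions, Tubgcp2 was at 45.4 and 25.5 TPM, and Tubgcp4 (3.53 TPM and 0 reads) and Nedd1 (0 reads and 1 read) were lowest. Of the genes that carry out tubulin self-control, Ttc5 was at 94.9 and 65.3 TPM, Scaper at 27.3 and 55.9 TPM, and Cnot11 at 0 and 42.7 TPM. For comparison, of 21461 nuclear protein-coding genes at any level, 5305 were found in both libraries, 3743 only in the first and 905 only in the second.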

How the data were processed

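RNA from whole forebrain of 2 newborn pups was extracted with mirVana and taken through a Smart-seq protocol, per the labels' protocols. The authors deposited, for each library, expected counts (estimated reads), TPM, posterior mean TPM with credibility bounds and FPKM per gene and per transcript, and the percent of each gene's TPM in a transcript, in columns named as RSEM names them, per the file headers. The build was mm10 with annotation M4, per text the authors deposited beside the tables. For the aligner, counter, versions and strand setting, nothing is given in the sources used here. The labels describe 2 pups but give both 1 donor identifier.

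Symbols, positions and transcript names came from GENCODE M21 on the same assembly (98.0% of 43346 genes matched; 10 of 10 members). Windows and identities used M21 transcripts, with the highest-share transcript that has both start and stop codons; 4 of these, Tuba1a-201, Tuba1c-201, Tubb2a-201 and Tubb2b-201, are longer there than in the tables, and Tuba4a is represented by Tuba4a-202. Coding sequences were aligned globally with Biopython 1.88 (match 1, mismatch -1, gap opening -5, extension -0.5), and residue differences were counted after translation. Shares were taken within a library. Differences are on log2(TPM + 1), which understates those of low genes; 2-fold or more was counted. TMM factors (edgeR 4.0.16, expected counts rounded, genes with 10 or more reads) served an alternative only. The 2-fold count was tested on simulated data with counting noise only (pup 3 against pup 1, 2797 genes). There it called 200 of 200 genes changed 4-fold and 0 of 200 left at a fold of 1. In the real libraries 43.1% of the 2797 genes were 2-fold or more apart, and noise beyond counting was not simulated. The simulation therefore cannot show how often the 2-fold count errs in these libraries. The members and lists were chosen with earlier results of these data known. The genes named are the members, then the 3 highest and 2 lowest of each list; other genes named were chosen after their values were seen. Other software was R 4.3.3, matplotlib 3.10.9, scipy 1.17.1, numpy 2.4.6 and pandas 2.3.3 under Python 3.11.15. Some tail sequences and 1 marker are not reported here.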

Additional observations from a re-analysis of the deposited data

How the results depend on the processing

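No test was possible with 1 group of 2 libraries, and each value here is a mean of both pups or a count. Shares of Tuba1a, Tubb3, alpha members and the family, the leading transcript shares of 5 members and the count of members 2-fold apart were recomputed under 54 alternatives: FPKM, CPM, posterior mean TPM, other denominators, pseudocounts, folds and each pup alone. For 27 of these the outcome is fixed by construction: 4 shares in FPKM, 5 transcript percents deposited by the authors, which are the same TPM shares rounded, and 18 values of a pup alone. Of the other 27, 26 moved by less than 1 SD between pups or kept the count within 1.5 times. The exception was a fold of 4 in place of 2, with 1 member apart (Tuba1c) in place of 4, as a higher threshold must. Among the 26, the count of members at a mean of at least 10 TPM could not move, as all members lie above it. Nor could the Tuba1a share with the other alpha-tubulin genes by symbol added, since these had 0 reads. The limit of 1 SD of 2 pups is wide, 12.2 points for Tubb3, so the 26 do not show stability. Each pup alone gave 93.5 to 95.2% for Tuba1a among alpha members, 22.0 to 39.2% for Tubb3 among beta members, 66.5 to 76.8% for alpha in the family, 3.68 to 4.78% for the family in all TPM, and 29.4 to 69.0% for Tuba4a-201. With n = 2, a pup alone cannot lie more than 1 SD from the mean, so these show the range and not stability. Adding 6 alpha pseudogenes, an alternative chosen after seeing the data, gave 93.9% for Tuba1a. The count of members apart cannot be made with 1 pup. No paired analysis was possible because there is 1 group.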
